A study of Mus musculus with 54 samples.

Results

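Star, Cyp11a1, Hsd3b1, Fdx1 and Fdxr, the genes that carry cholesterol to progesterone, were read from the count and TPM tables of single mouse follicle sides by their symbols. They were 5 of the 25149 genes listed, chosen for what their proteins do, and all 5 passed the filter on low counts in every comparison. Steroid synthesis starts when STAR brings cholesterol into the mitochondrion, where CYP11A1 cuts the side chain to make pregnenolone, and a 3-beta-hydroxysteroid dehydrogenase such as HSD3B1 turns pregnenolone into progesterone. CYP11A1 takes its electrons from the iron-sulfur protein ferredoxin (FDX1), which receives them from ferredoxin reductase (FDXR). In the ovary, theca cells run the first steps before the luteinizing hormone (LH) surge, and granulosa cells gain them as they luteinize.

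Follicles of female CD-1 mice aged 14 to 16 days grew in alginate for 8 days and then spent 12 h in maturation medium with fetal bovine serum, EGF and recombinant FSH, with or without hCG, which acts on the LH receptor. Each follicle was cut into sides, and each side gave a Smart-Seq2 library. Without hCG the sides were called by the predicted rupture site, and gave 15 libraries of the putative unruptured side and 14 of the putative ruptured side. Post-hCG there were 12 libraries of the unruptured side and 13 of the ruptured side, 54 in all. Total counts ran from 1497071 to 2834734 per library. The labels call the tissue cumulus-oocyte complex, whereas the methods state that the complexes were discarded. The summed level of 10 oocyte markers had a median of at most 0.200 TPM in each group and reached 160 TPM in 1 putative unruptured library. A cultured follicle has no blood supply, and 7 immune markers summed to at most 16.3 TPM in any library. Nothing in the labels says whether sides came from separate animals, so p-values measure the spread between these sides, which may share animals or follicles.

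In GRCm38, the GENCODE annotation places Star on chromosome 8 at 25806555 to 25815982 on the plus strand and Cyp11a1 on chromosome 9 at 58006411 to 58027023 on the plus strand. The annotation has Hsd3b1 on chromosome 3 at 98852194 to 98859794 on the minus strand, beside its relatives Hsd3b2, Hsd3b3 and Hsd3b6. Both electron carriers lie on minus strands, Fdx1 on chromosome 9 at 51943306 to 51963556 and Fdxr on chromosome 11 at 115268024 to 115277050. Of the 1851 distinct 31-base stretches in Hsd3b1 transcripts, 241 also occurred in other genes, first Hsd3b6, Hsd3b2 and Hsd3b3, and its estimated counts were whole numbers in 0 of 54 libraries. Reads could be divided between these genes, so the values of Hsd3b1 are uncertain to that degree. Cyp11a1 had whole counts in 37 of 54 libraries and shares 145 of its 4804 exonic bases with the lincRNA Gm17322 on the same strand, whereas Star, Fdx1 and Fdxr had whole counts in all 54.

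The promoters of Fdx1, Fdxr and Hsd3b1 are shown because the levels of the first 2 of these genes were correlated within all 4 groups, whereas Hsd3b1 passed the threshold with no other member. RefSeq (GRCm38.p6) held promoter windows of 300 bases for 4 of the 5 members, and none is listed for Star. Capitals mark the letters searched on both strands: the half-site of the NR5A receptors (CAAGGNC), the sites of GATA factors (AGATAA and AGATAG, and also the forms TGATAA and TGATAG) and Sp1 sites (GGGCGG). The stretches lie upstream of the start site and read 5′ to 3′ along the gene's strand.
Fdx1 (chr9:51963603-51963852, minus strand): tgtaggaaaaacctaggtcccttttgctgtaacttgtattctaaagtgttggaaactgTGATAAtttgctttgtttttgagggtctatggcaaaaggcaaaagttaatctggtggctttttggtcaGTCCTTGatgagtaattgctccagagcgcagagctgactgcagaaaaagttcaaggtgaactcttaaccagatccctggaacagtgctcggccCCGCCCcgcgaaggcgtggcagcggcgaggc
Fdxr (chr11:115277102-115277219, minus strand): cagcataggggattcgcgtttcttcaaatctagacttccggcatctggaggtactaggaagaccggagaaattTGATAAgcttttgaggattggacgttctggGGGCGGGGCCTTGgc
Hsd3b1 (chr3:98859795-98860044, minus strand): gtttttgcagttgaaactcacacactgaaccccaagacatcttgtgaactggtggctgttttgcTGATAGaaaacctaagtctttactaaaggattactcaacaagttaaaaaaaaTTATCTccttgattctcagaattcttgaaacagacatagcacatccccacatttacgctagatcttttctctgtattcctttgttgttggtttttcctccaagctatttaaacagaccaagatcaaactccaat

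The windows of Fdx1 and Fdxr each held 1 GATA site and 1 NR5A half-site, with 1 Sp1 site in Fdx1 and 3 in Fdxr. The stretch of Fdxr ends at the outermost start that RefSeq lists for the gene, so the Sp1 sites 34 and 16 bases before the start of this window are not printed. In Fdx1 the GATA letters began 192 bases before the start and the NR5A letters 124 bases before it, and in Fdxr they began 177 and 141 bases before it. The window of Hsd3b1 held 2 GATA sites and neither of the other motifs. Of 32851 promoter windows of this length, 29.8% held a GATA site, 17.8% an NR5A half-site and 35.7% an Sp1 site. No overlap between motifs occurred in the printed stretches, although the Sp1 and NR5A letters of Fdxr adjoin. For Cyp11a1, RefSeq gives a pair of start sites. Neither window includes the GENCODE start of the gene, 58006411, and the bases before that start were not searched. The window at 58014952 held 1 GATA site and 1 C/EBP site (TTGCNNAA, in 10.8% of windows), and the window at 57998024 held 1 half-site of the cyclic AMP response element (TGACG, in 20.8%) and 1 Sp1 site. These matches are descriptions of letters and were not tested as binding sites.

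Without hCG, Star and Cyp11a1 were uneven between libraries, and Hsd3b1 was abundant. Cyp11a1 ranked 203 by mean TPM among all genes in putative unruptured libraries and 480 in putative ruptured ones. Star stood lower, at ranks 1056 and 3115 in the same order. Together the 5 members made up a median of 0.302% of the summed TPM of the listed genes in putative unruptured libraries (0.169% to 1.01%) and 0.637% in putative ruptured libraries (0.220% to 1.10%). After hCG these medians were 2.36% in unruptured (1.51% to 3.00%) and 2.76% in ruptured libraries (1.67% to 3.33%), above every library without hCG. By mean TPM, Fdx1 ranked 11 and Hsd3b1 14 among all genes on the ruptured side post-hCG.

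**Figure D1:**
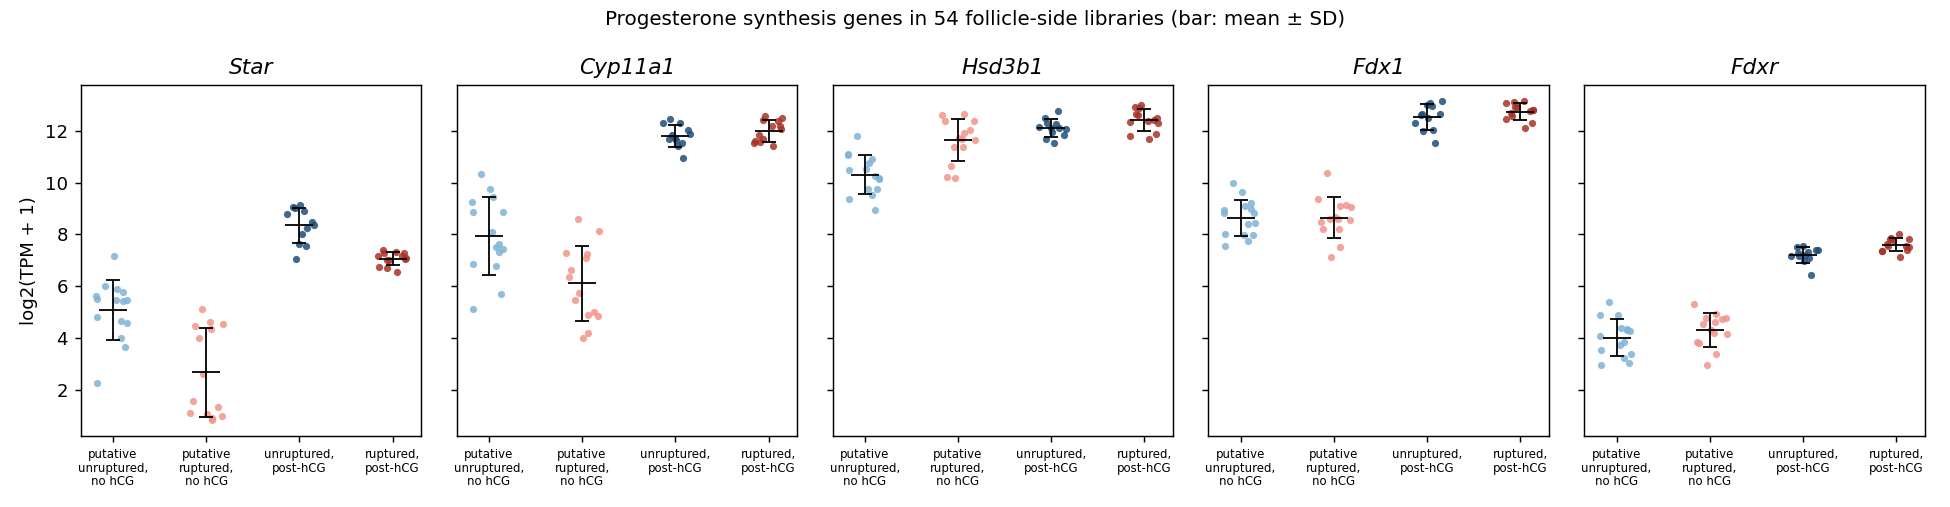
Level of each member, as log2(TPM + 1) on the vertical axis, in the 4 groups. Each point is 1 library and bars give the mean ± SD; the post-hCG points of Cyp11a1, Fdx1 and Fdxr lie above all points without hCG, whereas those of Hsd3b1 overlap.

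Star, which controls the entry of cholesterol into the pathway, was the least abundant member on the putative ruptured side. The putative unruptured libraries held 3.77 to 143 TPM with a median of 43.1, and the putative ruptured libraries 0.760 to 33.6 TPM with a median of 3.48. With hCG, unruptured libraries held 132 to 556 TPM around a median of 341, and ruptured libraries 92.1 to 169 TPM around a median of 136. The order was therefore putative ruptured, putative unruptured, ruptured, unruptured, and each pair of neighbours in that order overlapped, whereas all 13 ruptured libraries lay above all 14 putative ruptured ones. Within the putative ruptured group the libraries split into clusters, 7 at 0.760 to 1.94 TPM and 7 at 5.03 to 33.6 TPM. The lowest putative ruptured libraries rest on few reads, with 7 counts of Star in the lowest and 33.5 at the median.

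Cyp11a1, the enzyme that commits cholesterol to steroid synthesis, had the largest response to hCG of the members on the ruptured side. Its level was 33.7 to 1306 TPM in putative unruptured libraries, with a median of 197, and 15.1 to 390 TPM in putative ruptured libraries, with a median of 66.0. After hCG it was 2007 to 5599 TPM in unruptured libraries (median 3508) and 2732 to 6169 TPM in ruptured libraries (median 4272). Both sides overlapped within a medium, and the media did not overlap on either side.

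Hsd3b1, whose protein makes progesterone itself, was the most abundant member without hCG. Putative unruptured libraries ranged over 493 to 3528 TPM (median 1235), and putative ruptured libraries over 1162 to 6372 TPM (median 3320). After hCG the ranges were 2975 to 7033 TPM (median 4421) for unruptured and 3255 to 8201 TPM (median 5484) for ruptured libraries. All 4 groups overlapped with their neighbours, and 4 of 13 ruptured libraries exceeded every putative ruptured library.

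The electron carriers of CYP11A1 stood at unlike levels. Fdx1 was at 185 to 1005 TPM in putative unruptured libraries (median 453) and 139 to 1311 TPM in putative ruptured libraries (median 387). After hCG it stood at 2955 to 9106 TPM (median 6277) in unruptured and 4375 to 9151 TPM (median 7100) in ruptured libraries. Fdxr was far less abundant, at 6.65 to 40.9 TPM in putative unruptured libraries (median 15.9) and 6.74 to 38.7 TPM in putative ruptured ones (median 20.4). Its values after hCG were 85.3 to 187 TPM (median 151) in unruptured and 140 to 260 TPM (median 188) in ruptured libraries. For both carriers the sides overlapped and the media did not.

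The spread between libraries was smaller post-hCG for each member on each side. The SD of log2(TPM + 1) of Star was 1.16 without hCG and 0.67 post-hCG for the unruptured side, and 1.72 and 0.26 for the ruptured. For Cyp11a1 the SDs were 1.50 and 0.42 for the unruptured side and 1.45 and 0.41 for the ruptured. Of the 9888 genes whose mean reached 1 TPM, 58.5% had the lower SD post-hCG for the unruptured side and 54.8% for the ruptured, and their median SD changed from 0.42 to 0.39 and from 0.42 to 0.41. The difference in spread was not tested.

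The sides without hCG address where the pathway stood in follicles kept for the same 12 h without hCG. Star and Cyp11a1 were lower on the putative ruptured side than on the putative unruptured side, and Hsd3b1 was higher. The log2FC, positive where the putative ruptured side was higher, was -2.06 ± 0.47 (SE) for Star, with an adjusted p of 0.0020 in edgeR's quasi-likelihood test. Cyp11a1 differed by -1.70 ± 0.48 (adjusted p = 0.012) and Hsd3b1 by 1.44 ± 0.27 (adjusted p = 0.00029). Fdx1 had a log2FC of 0.14 ± 0.22 (adjusted p = 0.71) and Fdxr of 0.29 ± 0.22 (adjusted p = 0.39), neither past the threshold. Thus 3 of 5 members were called, 1 higher and 2 lower, where 17.8% of 9063 genes were called in either direction. Each of the 5 results stayed on its side of the threshold in all 29 refits that left out a library.

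Post-hCG, the sides address how the pathway was shared out at ovulation. Star was again lower on the ruptured side, by a log2FC of -0.95 ± 0.19 (adjusted p = 0.00030), and all 13 ruptured libraries lay below the median of the unruptured side. Fdxr was higher on the ruptured side by 0.61 ± 0.10 (adjusted p = 4.6e-05), with 7 of 13 libraries above every unruptured one. Hsd3b1 was higher by 0.56 ± 0.14 (adjusted p = 0.0029). Cyp11a1 (log2FC 0.37 ± 0.17, adjusted p = 0.12) and Fdx1 (0.36 ± 0.13, adjusted p = 0.051) did not pass. This made 3 of 5 members called, 2 higher and 1 lower, where 21.4% of 8585 genes were called in either direction. When all 4 groups shared 1 fit, the adjusted p was 0.077 for Star and 0.086 for Hsd3b1, and limma on log2(TPM + 1) gave 0.13 for Hsd3b1, so that Fdxr alone kept its call in the shared fit.

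**Figure D2:**
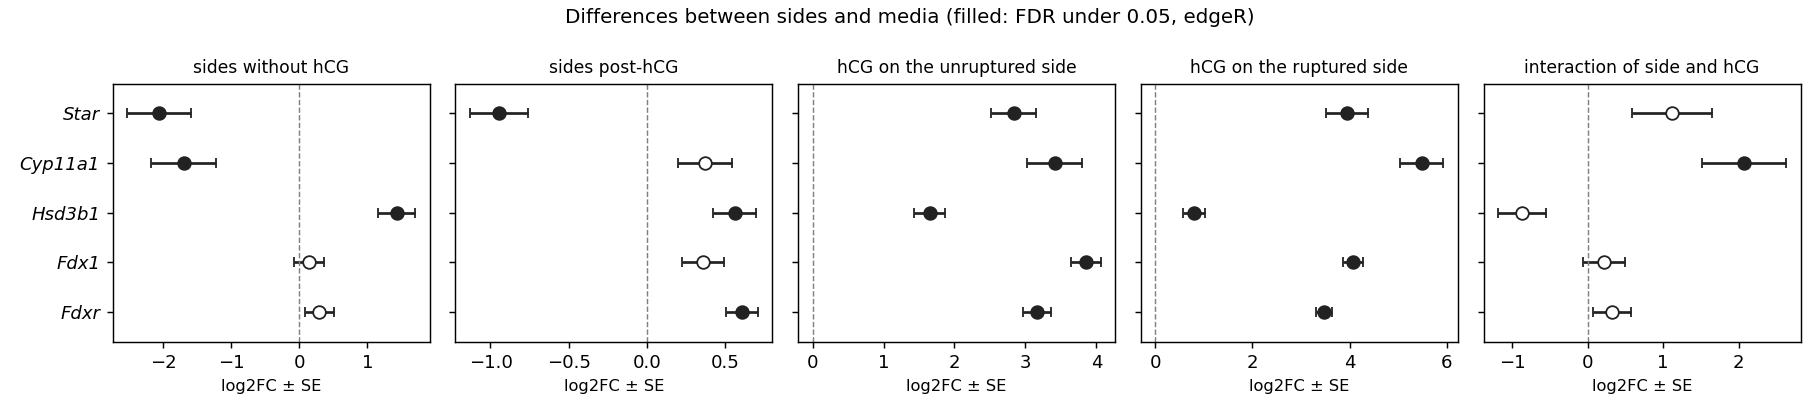
Differences between groups as log2FC ± SE from edgeR on the horizontal axis, with a scale of its own in each panel, for the 5 members. Filled points passed an adjusted p of 0.05; a positive value means higher on the ruptured side (first 2 panels), higher post-hCG (next 2) or a larger response to hCG on the ruptured side (last).

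All 5 members rose with hCG on both sides. On the unruptured side the log2FC was 2.83 ± 0.32 for Star (adjusted p = 5.1e-09) and 3.42 ± 0.39 for Cyp11a1 (adjusted p = 7.1e-09). Hsd3b1 rose there by 1.65 ± 0.22 (adjusted p = 1.7e-07), Fdx1 by 3.85 ± 0.21 (adjusted p = 3.1e-16) and Fdxr by 3.16 ± 0.20 (adjusted p = 8.2e-15). In TPM, the mean level was 8.31 times higher for Star, 9.82 times for Cyp11a1, 3.17 times for Hsd3b1, 14.1 times for Fdx1 and 8.72 times for Fdxr. On this side 25.4% of 9320 genes were called higher post-hCG. In 3 of 5 members, Cyp11a1, Fdx1 and Fdxr, all 12 post-hCG libraries lay above all 15 without hCG, which held for 3.82% of the genes. For Star 11 of 12 did so.

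On the ruptured side Star rose by 3.95 ± 0.43 (adjusted p = 1.7e-09) and Cyp11a1 by 5.48 ± 0.45 (adjusted p = 1.9e-12). Hsd3b1, already high there without hCG, rose by 0.79 ± 0.22 (adjusted p = 0.0028). Fdx1 rose by 4.07 ± 0.20 (adjusted p = 1.1e-17) and Fdxr by 3.48 ± 0.16 (adjusted p = 2.6e-18). Mean TPM was 12.7 times higher for Star, 39.4 times for Cyp11a1, 1.57 times for Hsd3b1, 15.3 times for Fdx1 and 9.56 times for Fdxr. Here 29.7% of 8531 genes were called higher. In 4 of 5 members every post-hCG library lay above every library without hCG, which held for 3.43% of the genes, and Hsd3b1 was the exception. These comparisons share the libraries of each group with the comparisons of the sides.

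Whether the response to hCG differed between the sides was tested by an interaction. The response of Cyp11a1 was larger on the ruptured side by 2.07 ± 0.55 on the log2 scale (adjusted p = 0.011), where 8.91% of 10013 genes passed in either direction. The difference was 1.12 ± 0.53 for Star (adjusted p = 0.18) and -0.87 ± 0.32 for Hsd3b1 (adjusted p = 0.078), neither past the threshold. For Fdx1 it was 0.22 ± 0.27 (adjusted p = 0.70) and for Fdxr 0.32 ± 0.25 (adjusted p = 0.49). With limma on log2(TPM + 1), Hsd3b1 passed (adjusted p = 0.045), and without a filter Cyp11a1 did not (adjusted p = 0.051).

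Ratios of (TPM + 1) between members of a library were compared in 16 permutation tests (two-sided, 100000 resamples, Benjamini-Hochberg adjusted). Hsd3b1 exceeded Cyp11a1 4.70 times at the median of the putative unruptured libraries and 38.5 times at that of the putative ruptured ones. Post-hCG these medians were 1.20 and 1.23. The difference between the sides was 3.15 on the log2 scale without hCG (adjusted p = 8.0e-05) and 0.12 post-hCG (adjusted p = 0.66). The change with hCG was -2.07 for unruptured and -5.10 for ruptured sides (adjusted p = 8.0e-05 for both).

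Star was lowest against Cyp11a1 on the ruptured side post-hCG. Its log2 ratio to Cyp11a1 had a mean of -2.85 ± 0.77 (SD, n = 15) in the putative unruptured group and -3.43 ± 1.14 (n = 14) in the putative ruptured group, a difference of -0.59 (permutation test, adjusted p = 0.14). The call depended on the added constant, which weighs on the 7 libraries with Star up to 1.94 TPM, and with log2(TPM + 0.1) the difference was -0.95 (permutation test, adjusted p = 0.042). Among post-hCG libraries it was -3.46 ± 0.64 (n = 12) for unruptured and -4.94 ± 0.41 (n = 13) for ruptured sides (permutation test, adjusted p = 8.0e-05). The ratio changed with hCG by -1.50 on the ruptured side (permutation test, adjusted p = 0.00025). On the unruptured side the change was -0.61 (permutation test, adjusted p = 0.059), and on log2 CPM it was -0.88 and passed (permutation test, adjusted p = 0.012). At the median, Cyp11a1 exceeded Star 11.2 times in unruptured and 30.0 times in ruptured libraries post-hCG.

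Fdx1 stood at 1.18 times Cyp11a1 at the median of the putative unruptured group and at 4.29 times at that of the putative ruptured group, a difference of 1.83 on the log2 scale (permutation test, adjusted p = 0.0017). Post-hCG the medians were 1.57 and 1.67 and the difference 0.026 (permutation test, adjusted p = 0.95). The ratio of Fdx1 to its reductase rose with hCG, from 24.5 to 39.1 at the median for unruptured and from 19.5 to 34.6 for ruptured sides. These rises were 0.70 and 0.81 on the log2 scale (permutation test, adjusted p = 9.6e-05 and 0.00024).

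**Figure D3:**
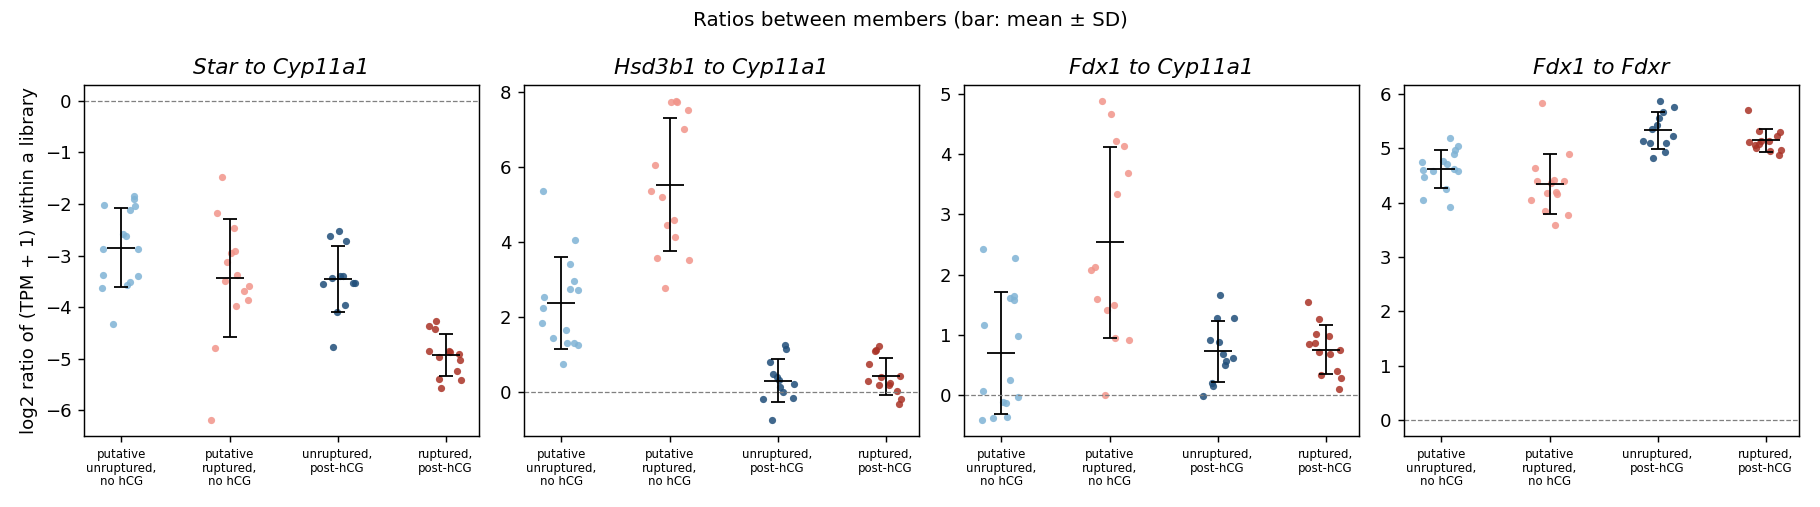
Log2 ratio of (TPM + 1) between members within each library on the vertical axis, by group. Each point is 1 library and bars give the mean ± SD; Hsd3b1 to Cyp11a1 is highest on the putative ruptured side and near 0 post-hCG, and Star to Cyp11a1 is lowest on the ruptured side post-hCG.

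Co-variation across libraries was measured within each group, since the groups form clusters of their own. The 10 pairs in 4 groups gave 40 relations (Pearson's r of log2(TPM + 1), two-sided permutation test, Benjamini-Hochberg adjusted over the 40). For the 4 pairs with Star on the putative ruptured side no r over the group is given, because Star fell into clusters there, and pooled over the clusters 1 of them passed, Star with Cyp11a1. Of the other 36 relations 9 passed by r and 6 by Spearman's rho. The share of all gene pairs that would pass was not computed, so these counts have no background. For Fdx1, the mean within-group r with Cyp11a1 was 0.48, at rank 1286 of 9888 genes, whereas Fdxr held rank 8.

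Fdx1 and Fdxr, which work as a couple, had an r past the threshold in all 4 groups. On the putative unruptured side r was 0.88 (rho 0.85, n = 15, adjusted p = 0.00040 and 0.00088). On the putative ruptured side r was 0.72 (rho 0.65, n = 14, adjusted p = 0.016 and 0.056). With hCG r was 0.76 among unruptured libraries (rho 0.68, n = 12, adjusted p = 0.016 and 0.062) and 0.75 among ruptured ones (rho 0.67, n = 13, adjusted p = 0.016 and 0.056). Without the 2 libraries farthest from the median of Fdx1, r was 0.79, 0.75, 0.51 and 0.57 in the same order. On log2 CPM the r of the ruptured side was 0.42 (adjusted p = 0.34) and after thinning 0.57 (adjusted p = 0.14), so that relation depended on the scale.

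The other relations past the threshold lay on the putative unruptured side (n = 15), where Star, Cyp11a1 and both carriers varied together. There r was 0.86 for Star and Cyp11a1 (rho 0.90, adjusted p = 0.00053 and 0.00088) and 0.84 for Star and Fdx1 (rho 0.85, adjusted p = 0.00053 and 0.00088). It was 0.81 for Star and Fdxr (rho 0.85, adjusted p = 0.0017 and 0.00088), 0.81 for Cyp11a1 and Fdx1 (rho 0.72, adjusted p = 0.0021 and 0.020) and 0.88 for Cyp11a1 and Fdxr (rho 0.85, adjusted p = 0.00080 and 0.00088). Without the 2 farthest libraries these r were 0.74, 0.81, 0.72, 0.68 and 0.80. Hsd3b1 passed with no other member in the 15 relations given, with r from -0.41 to 0.65, and with Star on the putative ruptured side it did not pass over the clusters either. Post-hCG, r of Star and Cyp11a1 was 0.38 among unruptured and 0.35 among ruptured libraries (permutation test, adjusted p = 0.39 and 0.41). A difference in r between groups was not tested, and the narrower range of the members post-hCG moves with it.

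Inside the clusters of the putative ruptured side (n = 7 each), r of Star and Cyp11a1 was 0.49 in the lower and 0.76 in the upper (exact permutation test, adjusted p = 0.53 and 0.34 over 20 relations). No relation of Star passed within either cluster. The clusters were cut on Star itself, which narrows its range, and hold 7 libraries each. Even an r of 0.81, of Star and Fdxr in the upper cluster, did not pass (exact permutation test, adjusted p = 0.34). These tests therefore cannot decide whether Star varies with the other members inside a cluster.

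**Figure D4:**
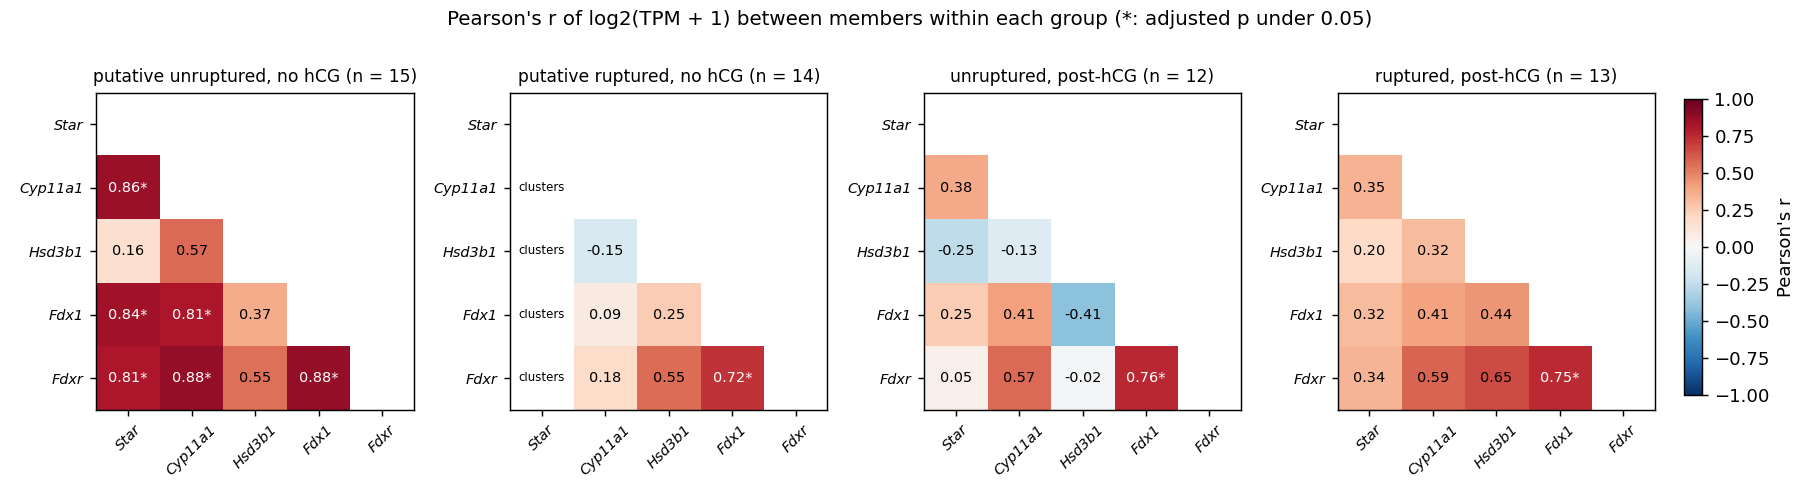
Pearson's r between members within each group, by colour and number, with members on both axes; an asterisk marks an adjusted p under 0.05. Fdx1 and Fdxr carry an asterisk in all 4 groups, and the entries of Star on the putative ruptured side are left out because its values form clusters.

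Levels of cell type markers also differed between the groups. In bulk samples, fewer cells of a type and less RNA per cell cannot be told apart. The summed level of 12 theca markers had a median of 784 TPM in putative unruptured libraries (136 to 2901) and 63.1 TPM in putative ruptured libraries (22.3 to 822). After hCG it was 370 TPM in unruptured libraries (86.5 to 1355) and 7.13 TPM in ruptured libraries (3.44 to 57.1). With hCG, 7 of the 10 tested theca markers fell on the unruptured side and 4 of 5 on the ruptured side, and none rose. All 5 members rose with hCG, and 27.7% and 30.4% of all genes fell on these sides. Cyp17a1, the defining enzyme of theca cells, was listed at 0 in every ruptured library post-hCG, but was too low to test in any comparison. Of the theca markers, 7 of the 10 tested were lower on the putative ruptured side and 6 of the 7 tested were lower on the ruptured side, and none was higher. Of all genes tested, 812 of 9063 and 971 of 8585 were lower on these sides. Star was lower on the same side in both media and Cyp11a1 without hCG. In ruptured libraries post-hCG, where theca markers were lowest, Star was at 92.1 to 169 TPM. The part of theca cells in the levels of Star was not tested.

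The 9 granulosa markers summed to a median of 4082 TPM in putative unruptured libraries (1567 to 7668) and 14326 TPM in putative ruptured libraries (5920 to 22978). Of the 8 tested, 7 were higher on the putative ruptured side, as Hsd3b1 was, where 801 of 9063 genes were higher. After hCG the median sums were 1568 TPM in unruptured (1001 to 2209) and 1317 TPM in ruptured libraries (873 to 1644). By gene, of the 5 tested between these sides, Nr5a2 and Inhba were higher on the ruptured side and none was lower. Their median log2FC was 0.53, and 862 of 8585 genes were higher. Amh was listed at 0 in both groups of the ruptured side, but was too low to test in any comparison. Of the 8 tested granulosa markers 6 fell with hCG on each side, where 27.7% and 30.4% of all genes fell, while Hsd3b1 rose. Nr5a2 rose on both sides and Fshr, the FSH receptor, on the unruptured side. Markers of other cells moved as well. The 6 muscle markers summed to a median of 33.5 TPM in putative unruptured libraries (4.97 to 65.3) and 4.72 TPM in putative ruptured ones (1.08 to 45.4), and to 4.18 and 1.29 TPM post-hCG. The sum of 6 endothelial markers had medians of 1.60 and 1.21 TPM on the putative sides without hCG. Post-hCG that sum ran from 4.17 to 29.6 TPM in unruptured and from 4.23 to 20.8 TPM in ruptured libraries. Of the cumulus markers 3 of the 4 tested, Has2, Ptgs2 and Tnfaip6, were higher on the putative ruptured side, beside the same 801 of 9063 genes. The 6 cumulus markers summed to medians of 10.9 and 15.4 TPM on the putative sides and 30.0 and 28.6 TPM post-hCG. The part that cell composition had in the differences of the members was not tested.

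Across libraries, the members were set against both marker sums in another family of 40 relations. The share of all genes that would pass was not computed. Of the 40 relations 34 are given and 4 of these passed. The other 6, which are Star with either sum and the remaining members with the theca sum on the putative ruptured side, span the clusters of Star and have no r over the group here. Pooled over the clusters 3 of these 6 passed by r, all with the theca sum, namely Star and Cyp11a1 in the positive and Hsd3b1 in the negative direction. Within the clusters none passed, with r between -0.69 and 0.69 (exact permutation tests). With 7 libraries each and a cut on Star itself, these tests cannot decide whether the relations hold inside a cluster. On the putative unruptured side r with the theca sum was 0.77 for Star (rho 0.73, n = 15, adjusted p = 0.019 and 0.021) and 0.75 for Cyp11a1 (rho 0.80, adjusted p = 0.0092 and 0.0069). Without the 2 farthest libraries they were 0.48 and 0.63. Neither passed on log2 CPM, where r was 0.58 and 0.57 (permutation test, adjusted p = 0.13 for both), nor after thinning (permutation test, adjusted p = 0.14 for both). Pooled over the clusters, Hsd3b1 went with the granulosa sum on the putative ruptured side, at r 0.84 (rho 0.79, n = 14, adjusted p = 0.0056 and 0.013), or 0.72 without the 2 farthest libraries, and passed on log2 CPM and after thinning. On the ruptured side post-hCG r of Hsd3b1 with the granulosa sum was 0.74 (rho 0.70, n = 13, adjusted p = 0.026 and 0.051), or 0.56 without them, and did not pass on log2 CPM (0.50, permutation test, adjusted p = 0.28) or after thinning (0.58, permutation test, adjusted p = 0.18). The 7 putative ruptured libraries with the lowest Star were also the 7 with the lowest theca sums, at 22.3 to 50.2 TPM against 76.1 to 822 TPM in the others. Hsd3b1 was at 3382 to 6372 TPM in those 7 and at 1162 to 3258 TPM in the others. Its r of 0.84 with the granulosa sum therefore spans the clusters too, and r within them was not computed.

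**Figure D5:**
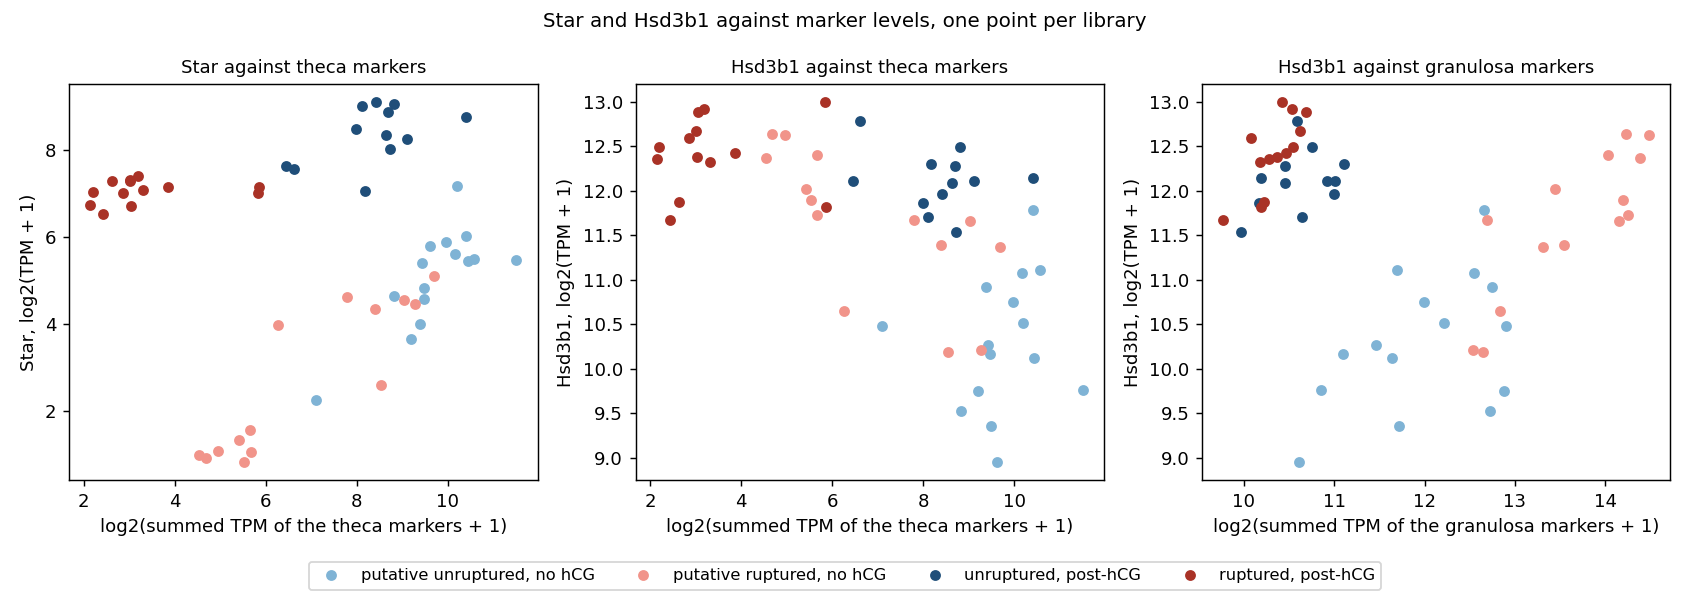
Log2(TPM + 1) of Star (left) and Hsd3b1 (middle, right) on the vertical axis against log2 of the summed TPM of theca or granulosa markers + 1 on the horizontal axis. Each point is 1 library, coloured by group; the putative ruptured libraries form a lower cluster of 7 with Star up to 1.94 TPM and an upper cluster of 7 from 5.03 TPM.

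The rest of the route to the mitochondrion largely rose with hCG too. Of 16 genes for the uptake, storage, release and delivery of cholesterol, 13 rose and 2 fell on the unruptured side, and of the 15 tested on the ruptured side 9 rose and 3 fell. Of all genes tested, 25.4% rose and 27.7% fell on the unruptured side, and 29.7% rose and 30.4% fell on the ruptured side. Akap1, which tethers protein kinase A at the mitochondrion, had a log2FC of 1.77 ± 0.15 and 2.09 ± 0.13 on these sides. Lipe, the hormone-sensitive lipase that frees stored cholesterol, rose by 1.37 ± 0.12 and 1.74 ± 0.13. The median log2FC of this list was 1.14 and 0.77, that of the 5 members was 3.16 and 3.95, and that of all genes -0.030 and -0.0012. Between the sides fewer genes of the list passed, 2 higher and 2 lower of 15 on the putative ruptured side and 1 higher and 4 lower of 16 on the ruptured side, where 17.8% and 21.4% of all genes were called. Tspo, an outer membrane protein, was lower there in both media (-0.69 ± 0.17 and -0.53 ± 0.09).

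Genes that use the products of the pathway moved in both directions. Cyp19a1, the aromatase that makes estrogen, fell by 5.47 ± 0.61 on the unruptured side and had a log2FC of -8.29 ± 0.51 on the ruptured side. Hsd17b1, which makes estradiol, also fell, with log2FCs of -3.32 ± 0.54 and -6.27 ± 0.53, while Hsd17b7 rose by 1.52 ± 0.14 and 1.24 ± 0.17. In all, 3 of 7 tested rose and 2 fell on the unruptured side, and 2 of 8 rose and 2 fell on the ruptured side, beside shares over all genes of 25.4% and 27.7%, then 29.7% and 30.4%. Of the relatives of Hsd3b1, Hsd3b3 was higher on the ruptured side post-hCG (1.61 ± 0.27), Hsd3b2 passed in no comparison, and Hsd3b6 was too low to test. Of the other electron carriers and mitochondrial P450 genes tested, 3 of 5 rose on the unruptured side, and 3 of 4 rose and 1 fell on the ruptured side, beside the same shares over all genes. Por, which serves the cytochromes P450 of the endoplasmic reticulum and not the mitochondrial CYP11A1, rose by 1.06 ± 0.11 and 0.54 ± 0.13.

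Among 14 transcription factors known to act on steroid synthesis genes, 10 were tested for hCG, and 4 rose and 4 fell on the unruptured side, 4 rose and 5 fell on the ruptured side. For all genes these shares were 25.4% and 27.7%, then 29.7% and 30.4%. Nr5a2, which binds the NR5A half-site seen in the Fdx1 and Fdxr promoters, rose by 2.12 ± 0.14 and 1.56 ± 0.15 and was higher on the ruptured side in both media (1.10 ± 0.17 without and 0.53 ± 0.10 with hCG). Its relative Nr5a1 was lower there in both media (-0.37 ± 0.12 and -0.23 ± 0.09), the latter value being named after it was seen. Runx2 rose most of the list, by 4.16 ± 0.17 and 4.99 ± 0.16. Of the 11 genes of gonadotropin signaling, 7 rose and 3 fell on the unruptured side and 6 rose and 2 fell on the ruptured side, beside the same shares of all genes. Lhcgr, the receptor through which hCG acts, rose on both sides, by 4.20 ± 0.47 on the ruptured side. Its response to hCG did not differ between the sides past the threshold (interaction test in edgeR, adjusted p = 0.85). Post-hCG, Lhcgr was higher on the ruptured side (1.28 ± 0.26).

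The genes most like each member were ranked by the mean within-group r over 9888 genes and 54 libraries, as a description with no test. Star was most like Serpina3n (0.74), Alas1 (0.74) and Akr1b8 (0.73), with Cyp11a1 at rank 15. Fdx1 held rank 223 for Star, Fdxr 600 and Hsd3b1 9213. The genes most like Cyp11a1 included Scarb1, the receptor for high density lipoprotein (0.66), and Stard5 (0.66), and Star and Fdxr held ranks 7 and 11. Fdx1 held rank 82 for Cyp11a1 and Hsd3b1 2307. Hsd3b1 was most like its relative Hsd3b3 (0.78), with which it shares sequence, then Akr1cl (0.67) and Pfn2 (0.65), and Fdxr, the nearest member, held rank 166. Fdx1 was most like Got1 (0.84), Ndfip1 (0.83) and Vapa (0.83), with Fdxr at rank 8. Cyp11a1 held only rank 1286 for Fdx1, Star 1778 and Hsd3b1 6368. Fdxr was most like Fkbp5 (0.81), Fam63a (0.81) and Fdx1 (0.79). Cyp11a1 held rank 149 for Fdxr, Hsd3b1 1018 and Star 2431. The points of a group share its culture medium and side, and libraries differ in depth.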

How the data were processed

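Each follicle side gave a Smart-Seq2 library, prepared with Nextera XT and read paired-end. The authors aligned reads to GRCm38 with HISAT2, and their methods name a batch correction of counts by ComBat-seq without saying whether the deposited tables precede it. The labels give no batch, so no value within batches could be formed. The submitters' processing notes also name Seurat 4. The deposited estimated counts per gene are partly fractional (72.2% of nonzero values were whole within 1e-06). The deposited TPM values were scaled by the authors for transcript length and library. The counting program and annotation are not given in the sources used here. All columns matched a sample.

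Each comparison was fitted on its own groups in R 4.3.3 with edgeR 4.0.16, on rounded counts and TMM factors. Genes had to pass edgeR's filter on low expression, with 10 as the minimum count and 15 as the minimum total. The quasi-likelihood F-test was adjusted over all genes tested (Benjamini-Hochberg), with a threshold of 0.05. TMM sets most genes near no change, and with library totals in its place the median log2FC of all genes was -0.14 for the sides post-hCG, -0.25 and -0.33 for hCG and -0.11 for the interaction. The script was tested on simulated data with 200 changed genes: for the sides without hCG (9063 genes) edgeR found 86% of genes changed 2-fold and 96% of those changed 4-fold, with 13 false calls. For the interaction (10013 genes) it found 68% and 96%, with 12 false calls. A member not called in the interaction may therefore still differ by about 2-fold. Ratios and correlations used log2(TPM + 1) and permutation tests with 100000 resamples in Python 3.11.15 with numpy 2.4.6. For a count in a single library, precision is limited by counting error and amplification, and totals had a median of 2157092. No libraries agreed within sampling noise. Same-numbered libraries did not deviate together (median r of -0.048, -0.0022, 0.0039 and 0.037), so the replicate numbers were not used as pairs. Positions come from GENCODE (release M21) for GRCm38.

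The members, marker lists and pathway lists were chosen with earlier results of these data known. All members were named in every comparison, and at most the 3 lowest adjusted p-values of other lists. The results of Lhcgr on the unruptured side and in the interaction were added after they were seen. A gene among those ranked by likeness to a member is not reported here. The split of the putative ruptured libraries into clusters, at 2 TPM of Star, and the count of relations by Spearman's rho were added after seeing the data. Alternatives were DESeq2 1.42.0, limma 3.58.1 on log2(TPM + 1) or with a pseudocount of 0.1, RLE size factors, library totals, no filter, a mean of at least 20 counts, thinning to 1497071 counts, 1 fit of all 4 groups, the replicate number as a block and leaving out each library.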

Additional observations from a re-analysis of the deposited data

Results flagged for a closer look

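The response of Cyp11a1 to hCG differed between the sides by the interaction test. It was larger on the ruptured side by 2.07 ± 0.55 on the log2 scale (adjusted p = 0.011 in edgeR, over all genes tested). The mean of log2(TPM + 1) went from 6.11 to 12.0 on the ruptured side and from 7.93 to 11.8 on the unruptured side. The difference lay between 1.87 and 2.33 in the 54 refits that left out a library and passed in each. No test of single outlying samples was made in these groups of 12 to 15 libraries.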

How the results depend on the processing

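Over the members, comparisons and alternatives other than leaving out libraries, 258 of 270 values kept their direction and side of the threshold, 6 lost a call and 6 gained one. The causes were not tested. With all 4 groups in 1 fit, 1 member was called between the sides post-hCG. For the interaction, 2 members were called with the replicate block, 2 with limma on log2(TPM + 1), 2 with a pseudocount of 0.1 and 0 with limma without a filter, where Cyp11a1 and Hsd3b1 had unadjusted p of 0.0014 and 0.0041. Fdx1 gained its call between the sides post-hCG with DESeq2 (adjusted p = 0.037), a mean of at least 20 counts (0.048) and the replicate block (0.049). The block changed no other call of a member than those of Fdx1 and of Star in the interaction (adjusted p = 0.010), and 2 of 14, 2 of 12, 2 of 12 and 1 of 13 libraries correlated best with their own number. Genes called between the sides without hCG were 1613 with edgeR and 1054, 1051 and 1034 with limma on log2(TPM + 1), with a pseudocount of 0.1 and without a filter. Of the relations with marker sums, 1 passed on log2 CPM and 1 after thinning, against 4, in both cases Hsd3b1 with the granulosa sum on the putative ruptured side. The ratio of Fdx1 to Cyp11a1 changed with hCG on the unruptured side by 0.021 and, on CPM, by -0.015. Leaving out single libraries gave 1 to 2 members called in the interaction, where Hsd3b1 passed in 4 of 54 refits, and Fdx1 between the sides without hCG ran from -0.0039 to 0.22. Post-hCG, Fdx1 passed in 6 of 25 refits and Cyp11a1 in 1 of 25, without unruptured replicate 11 (adjusted p = 0.049). With library totals 397 genes were higher and 1830 lower between the sides post-hCG, against 862 and 971. Depth limits Star on the putative ruptured side, where the lowest library had 7 counts.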
